A study of Mus musculus with 12 samples.

Results

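The 9 genes described here encode the pore-forming subunits of the AMPA receptors (Gria1, Gria2, Gria3 and Gria4) and the main subunits of the NMDA receptors (Grin1, Grin2a, Grin2b, Grin2c and Grin2d). They were chosen by name from the 27833 genes of the expression table. By the labels and the study, the libraries were made from hippocampal RNA of wild-type male C57BL/6J mice aged 20 months. The markers described below do not bear out this tissue equally in all of them. The 12 libraries analyzed fell into 3 in the CON group, 5 in the PQQ-L group and 4 in the PQQ-H group. CON mice received 0.2 mL of normal saline by oral gavage for 14 days, while PQQ-L and PQQ-H mice received pyrroloquinoline quinone (PQQ, a redox-active quinone) at 5 and 10 mg/kg/day in the same volume of saline. All groups therefore shared age, gavage and vehicle, and the comparisons concern PQQ in naturally aged animals, with no young group. Expression was given as FPKM, fragments scaled to gene length and to the library total. Levels can be set beside each other between genes only as far as the gene lengths used hold, as described below.

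AMPA receptors are tetramers that carry most of the fast excitatory current at glutamate synapses. Their GluA2 subunit, encoded by Gria2, is edited at the RNA level and makes the channel nearly impermeable to calcium. NMDA receptors need the GluN1 subunit encoded by Grin1 together with GluN2 subunits, open only when glutamate and a co-agonist are bound and the membrane is depolarized, and admit the calcium that triggers synaptic plasticity in the hippocampus. Grin2b predominates early in life and Grin2a joins it in the mature forebrain, whereas Grin2c is best known from cerebellar granule cells and astrocytes and Grin2d from interneurons and deep brain nuclei.

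Several libraries stood apart from the others in the markers of brain regions. In CON 1, CON 3, PQQ-H 1 and PQQ-H 2, the summed FPKM of 12 striatum markers was 1346 to 3375, against 37.91 to 180.8 in the other 8 libraries. The sum of 5 dentate granule neuron markers was 1.774 to 9.06 in these 4 libraries and 21.08 to 106.9 in the others, and that of 7 CA pyramidal neuron markers was 74.41 to 156.5 against 175.4 to 322.9. Oligodendrocyte markers summed to 1625 to 2557 FPKM in the 4 libraries and to 867.5 to 1534 elsewhere, and 8 general neuron markers to 1535 to 1635 and 1831 to 1963. The neuron markers did not move as one. In CON 1, Snap25, Syt1, Stmn2, Map2 and Nefl were at their lowest of all libraries, while Eno2 (336), Nefm (125.5) and Rbfox3 (11.9) were at their highest. In CON 1, the dentate marker Lct was listed at 0 and the CA1 markers Spink8 and Fibcd1 stood at 0.0695 and 0.745 FPKM, so several defining markers of the labelled tissue were at or near 0 there. These are called the 4 striatum-high libraries below, and they comprise 2 of 3 CON, 0 of 5 PQQ-L and 2 of 4 PQQ-H libraries. The summed choroid plexus markers separated the groups in another way, with 1773 to 5910 FPKM in CON, 99.22 to 196.2 in PQQ-L and 76.34 to 94.18 in PQQ-H. In CON, Ttr made up most of this sum (3615, 1499 and 5315 FPKM). Folr1, Kcne2, Clic6, Aqp1 and Enpp2 each separated CON from both PQQ groups as Ttr did. Kl and Prlr did not, and their lowest values lay in CON 1 (0.750 and 0.0342 FPKM). GABA interneuron markers summed to 607.7 to 872.7 FPKM in the striatum-high libraries and 425.7 to 588.3 in the others, microglia markers to 147.9 to 191.4 and 106.5 to 132.5, endothelium to 41.12 to 62.72 and 34.53 to 40.08, and basal forebrain cholinergic markers to 5.244 to 18.89 and 0.00517 to 0.516. Thalamus markers were highest in CON 1 (144.1) and CON 2 (78.1), and at most 24.66 elsewhere. The ranges overlapped for oligodendrocyte precursors (5.821 to 8.291 and 6.198 to 9.566) and for cerebellar granule neurons (2.322 to 7.224 and 0.933 to 19.54). Depth was similar throughout, with 29654553 to 38179496 reads on genes per library.

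The promoters of the subunits differ widely in sequence. Of the 9 genes, 5 were matched in the RefSeq promoter table (GRCm38.p6), namely Gria2, Gria4, Grin1, Grin2c and Grin2d. The 250 bases before the start of 4 of them are printed 5′ to 3′ on the minus strand, which is the strand of each gene. Gria2 stands for the subunits that varied together most, Gria4 and Grin2d are a pair that resembled each other across libraries, and Grin2c was the steadiest. Capitals mark the motifs found, and positions count back from the start.
Gria2, chr3:80802836-80803085: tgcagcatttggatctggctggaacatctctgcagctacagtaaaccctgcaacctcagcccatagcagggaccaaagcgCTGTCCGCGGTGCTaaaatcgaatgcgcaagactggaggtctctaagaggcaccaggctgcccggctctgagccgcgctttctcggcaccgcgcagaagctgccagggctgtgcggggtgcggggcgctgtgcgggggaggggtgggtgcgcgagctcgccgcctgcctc
Gria4, chr9:4796235-4796484: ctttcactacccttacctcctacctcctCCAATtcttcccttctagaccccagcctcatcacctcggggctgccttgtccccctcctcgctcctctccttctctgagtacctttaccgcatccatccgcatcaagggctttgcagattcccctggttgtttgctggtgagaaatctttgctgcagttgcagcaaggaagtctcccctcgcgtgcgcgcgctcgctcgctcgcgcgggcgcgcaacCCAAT
Grin2c, chr11:115267244-115267493: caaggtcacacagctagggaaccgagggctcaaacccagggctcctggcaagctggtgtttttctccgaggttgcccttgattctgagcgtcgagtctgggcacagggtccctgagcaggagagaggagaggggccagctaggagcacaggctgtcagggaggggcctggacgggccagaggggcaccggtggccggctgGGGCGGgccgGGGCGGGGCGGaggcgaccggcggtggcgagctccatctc
Grin2d, chr7:45866682-45866931: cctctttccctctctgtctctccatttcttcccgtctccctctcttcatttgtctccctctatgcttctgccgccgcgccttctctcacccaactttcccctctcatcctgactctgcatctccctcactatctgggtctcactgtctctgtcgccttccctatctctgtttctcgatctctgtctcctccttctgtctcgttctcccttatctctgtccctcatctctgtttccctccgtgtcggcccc
The search covered the core of RE1, the element that the repressor REST recognizes (AGCACC and GGACAG around 2 free bases), GGGCGG (GC box), CCAAT and TATAAA on both strands. Gria2 held the RE1-like letters as CTGTCCGCGGTGCT at -170, on the opposite strand, a match present in 0.0457% of 32851 promoter windows of the same length. Gria4 held CCAAT at -222 and -5, as 33.8% of windows do at least once. Grin2c held GGGCGG at -50, -40 and -35, the last 2 sharing 1 base, and 32.7% of windows hold this motif. In Grin2d no motif of the search was found, and 82.8% of its bases were pyrimidines, a share reached by 0.0304% of windows. TATAAA, in 12.4% of windows, was found in none of the 5 matched promoters. Such matches describe letters and no binding was measured. The Grin2d window follows the RefSeq start and lies within the longer GENCODE span of the gene.

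Gria1 and Grin1 were the most abundant subunits, with means over the 12 libraries of 118.5 and 103.4 FPKM. Gria2 followed with 42.13, Gria3 with 26.42, Grin2b with 14.57, Grin2a with 11.22, Gria4 with 9.948, Grin2c with 4.467 and Grin2d with 1.561 FPKM. The order of neighbors held in all 12 libraries for Grin1 over Gria2, Gria3 over Grin2b, Grin2b over Grin2a, Gria4 over Grin2c and Grin2c over Grin2d. Gria1 exceeded Grin1 in 8 libraries, Gria2 exceeded Gria3 in 11 and Grin2a exceeded Gria4 in 7, so the levels of Gria1 and Grin1, and of Grin2a and Gria4, were not separated by their spread. The 4 libraries where Grin1 led Gria1 were the 4 striatum-high ones. All 9 genes passed the filter of a mean FPKM of at least 0.5, and the fewest reads behind any value were 234, for Grin2d in PQQ-H 4. The levels depend on the gene length used, most of all for Grin1 and Grin2c, while the order of the 9 means does not change. The FPKM of Grin1 rests on 4372 bases and that of Grin2c on 10122, while the merged exons in GENCODE M21 measure 9700 and 5037 bases. For Gria2 these lengths are 11371 and 15548 bases, for Gria3 6500 and 9859, and for Grin2a 20202 and 17933. With the GENCODE lengths the mean would be 46.63 for Grin1, 8.975 for Grin2c, 30.81 for Gria2, 17.42 for Gria3 and 12.63 for Grin2a. Gria1 would then exceed Grin1 in 11 libraries and Gria3 would exceed Grin2b in 10. Grin2b would exceed Grin2a in 9 and Gria4 would exceed Grin2c in 8. An antisense gene, Grin1os, shares 7706 bases with the span of Grin1 and was listed at 3.62 to 12.7 FPKM (358 to 1126 reads), and since no strand setting is stated, reads of the overlap cannot be told apart.

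**Figure D1:**
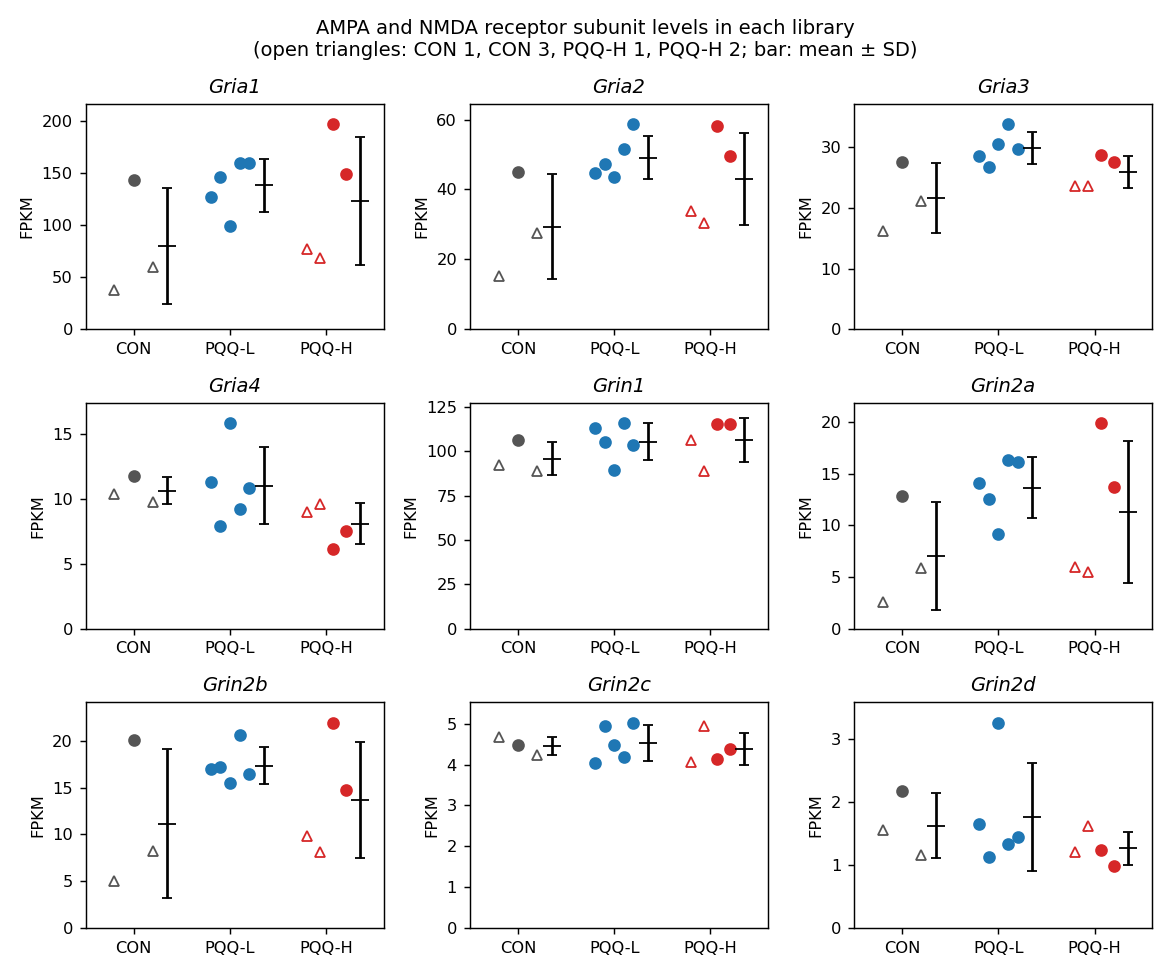
FPKM of each subunit in every library, by group, on axes from 0. Each point is 1 library, open triangles are the 4 striatum-high libraries, and the bar is the group mean ± SD (n = 3, 5 and 4). For Gria1, Gria2, Gria3, Grin2a and Grin2b the triangles lie below every filled point.

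Gria1 encodes GluA1, the AMPA subunit moved into synapses during long-term potentiation. Its FPKM was 37.9, 142.9 and 59.7 in CON 1 to 3. In PQQ-L it was 126.6, 145.7, 98.9, 159.5 and 159.4, and in PQQ-H 76.8, 68.8, 196.8 and 149.3. CON 2 lay among the PQQ-L libraries, while CON 1 and CON 3 lay below all libraries of both PQQ groups. The mean was 80.1 ± 55.4 in CON (SD, n = 3), 138.0 ± 25.7 in PQQ-L (SD, n = 5) and 122.9 ± 61.1 in PQQ-H (SD, n = 4).

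Gria2 was 15.3, 45.1 and 27.7 FPKM in CON. It was 44.6, 47.2, 43.5, 51.5 and 58.7 in PQQ-L, and 33.8, 30.5, 58.2 and 49.6 in PQQ-H. Again CON 2 fell inside the PQQ-L range and the other CON libraries below it. Gria3, which encodes the GluA3 subunit that pairs with GluA2, was 16.1, 27.6 and 21.0 FPKM in CON. It was 28.5, 26.6, 30.5, 33.7 and 29.6 in PQQ-L and 23.5, 23.6, 28.7 and 27.6 in PQQ-H. The Gria3 groups overlapped only through CON 2 in both comparisons with CON.

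Gria4 encodes GluA4, a subunit of fast AMPA receptors in interneurons and of immature pyramidal cells. It was 10.4, 11.8 and 9.74 FPKM in CON, 11.3, 7.91, 15.8, 9.25 and 10.8 in PQQ-L, and 9.03, 9.64, 6.14 and 7.53 in PQQ-H. Every PQQ-H library lay below every CON library, by a narrow margin between PQQ-H 2 and CON 3. The highest value, in PQQ-L 3, coincided with the highest Grin2d value.

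Grin1 was 92.4, 106.4 and 88.9 FPKM in CON, 113.4, 105.3, 89.3, 115.8 and 103.9 in PQQ-L, and 106.2, 88.7, 115.6 and 115.4 in PQQ-H. The obligatory subunit thus varied by 1.305-fold between its extremes, and the groups overlapped. Grin2a, whose GluN2A protein gives NMDA currents with fast decay, was 2.58, 12.8 and 5.83 FPKM in CON. It was 14.1, 12.6, 9.18, 16.4 and 16.1 in PQQ-L and 5.96, 5.50, 19.9 and 13.8 in PQQ-H. Its extremes differed by 7.711-fold, the widest span of the 9 genes.

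Grin2b, whose GluN2B protein gives slower currents and binds CaMKII, was 5.06, 20.1 and 8.19 FPKM in CON. It was 17.0, 17.2, 15.5, 20.6 and 16.4 in PQQ-L and 9.84, 8.16, 21.9 and 14.8 in PQQ-H. CON 2 was higher than 4 of the 5 PQQ-L libraries. Grin2c stayed between 4.04 and 5.03 FPKM in all 12 libraries. Grin2d was 1.55, 2.17 and 1.15 FPKM in CON, 1.65, 1.13, 3.26, 1.34 and 1.44 in PQQ-L and 1.21, 1.62, 1.24 and 0.987 in PQQ-H, so that only PQQ-L 3 stood clear of the rest.

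The spread over all 12 libraries also differed between the subunits. The SD of log2(FPKM + 0.1) was 0.86 for Grin2a, 0.72 for Gria1, 0.66 for Grin2b and 0.55 for Gria2, against a median of 0.23 over the 13796 genes tested. It was 0.45 for Grin2d, 0.34 for Gria4, 0.28 for Gria3, 0.16 for Grin1 and 0.11 for Grin2c. In bulk tissue, fewer cells of a type and less RNA per cell cannot be told apart. Gria1 was 37.9 to 76.8 FPKM in the 4 striatum-high libraries and 98.9 to 196.8 in the other 8. For Gria2 these ranges were 15.3 to 33.8 and 43.5 to 58.7, for Gria3 16.1 to 23.6 and 26.6 to 33.7, for Grin2a 2.58 to 5.96 and 9.18 to 19.9, and for Grin2b 5.06 to 9.84 and 14.8 to 21.9. The ranges did not overlap for these 5 genes and overlapped for Gria4, Grin1, Grin2c and Grin2d. The share of all genes whose ranges split in this way was not counted. The part of tissue make-up in the levels was not tested.

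**Figure D2:**
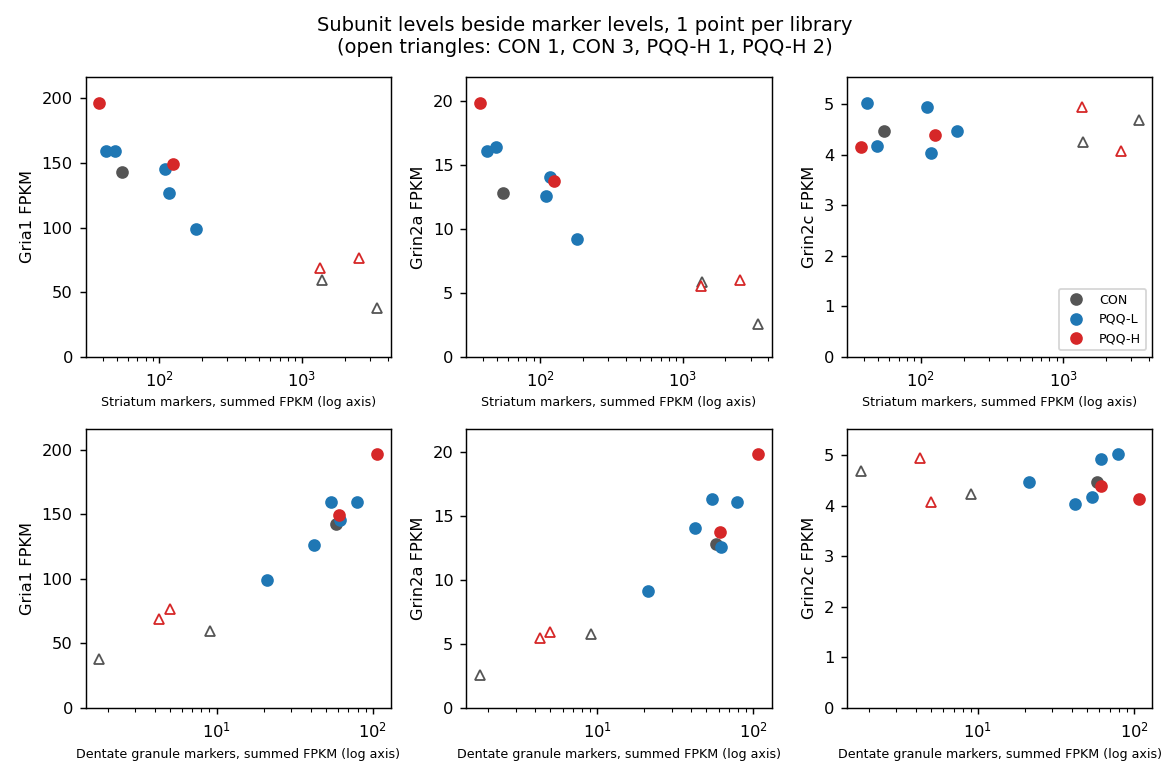
FPKM of Gria1, Grin2a and Grin2c (vertical, from 0) against the summed FPKM of striatum markers (top) and dentate granule neuron markers (bottom) on log axes, 1 point per library. The 4 open triangles combine high striatum markers (1346 to 3375) and low dentate markers (1.774 to 9.06) with Gria1 at 37.9 to 76.8 FPKM, whereas Grin2c stays between 4.04 and 5.03 throughout.

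In PQQ-L vs. CON, the question was whether the low dose changed receptor subunit mRNA in libraries labelled as aged hippocampus. No subunit passed an adjusted p below 0.05 (limma, Benjamini-Hochberg over 13796 genes), a threshold passed by 0.587% of all genes, or that threshold with a |log2FC| above 1, passed by 0.471%. At an unadjusted p below 0.05, 5 of 9 subunits were higher in PQQ-L, where 8.92% of all genes were, and 0 were lower (11.6% of all genes). These were Gria1, Gria2, Gria3, Grin2a and Grin2b. The ranges of the same 5 split with the striatum markers, a split whose share over all genes was not counted. The fitted log2FC was 0.98 for Gria1 (95% interval 0.05 to 1.92, adjusted p = 0.237), 0.87 for Gria2 (0.20 to 1.53, adjusted p = 0.219) and 0.49 for Gria3 (0.17 to 0.82, adjusted p = 0.187). For Grin2a it was 1.19 (0.08 to 2.31, adjusted p = 0.237) and for Grin2b 0.87 (0.0022 to 1.73, adjusted p = 0.242). Gria4 (0.02), Grin1 (0.14), Grin2c (0.02) and Grin2d (0.06) had adjusted p of 0.425 or more. The intervals were narrow for Grin1 (-0.11 to 0.38) and Grin2c (-0.20 to 0.23) and wide for Grin2d (-0.61 to 0.73). All 9 log2FC were above 0, as were 46.1% over all genes, with a median of 0.493 against -0.03. No subunit had libraries that were fully separated between PQQ-L and CON, whereas 2.96% of all genes were separated in the higher direction and 7.66% in the lower.

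Individual libraries decided these values. Without CON 2, the 5 genes passed an adjusted p below 0.05. Over all genes tested, those passing the stricter rule of that threshold with a |log2FC| above 1 numbered 866 there, against 65 with all 12 libraries. Genes passing the adjusted p alone, the rule met by the 5, were not counted there and may be more. The log2FC was then 1.51 for Gria1, 1.24 for Gria2, 0.69 for Gria3, 1.76 for Grin2a and 1.41 for Grin2b. The CON group was then made only of libraries with high striatum markers. Without CON 1, the log2FC fell to 0.56 for Gria1, 0.47 for Gria2, 0.30 for Gria3, 0.62 for Grin2a and 0.42 for Grin2b. Without the 4 striatum-high libraries, which leaves CON 2 as the lone control and assumes that it varies like the other groups, the log2FC was -0.07 for Gria1, 0.11 for Gria2, 0.11 for Gria3, 0.06 for Grin2a and -0.22 for Grin2b, and 0 subunits reached an unadjusted p below 0.05. With a striatum score as a covariate, 1 subunit did, and 5 did with the letter that opens each library name as a covariate (L in 7 and R in 5 libraries, not explained in the labels). voom on the recovered reads gave 0 subunits at an adjusted p below 0.05 and 4 higher at an unadjusted p below 0.05. The share of all genes at these p thresholds was not counted under these settings or those of the comparisons below.

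**Figure D3:**
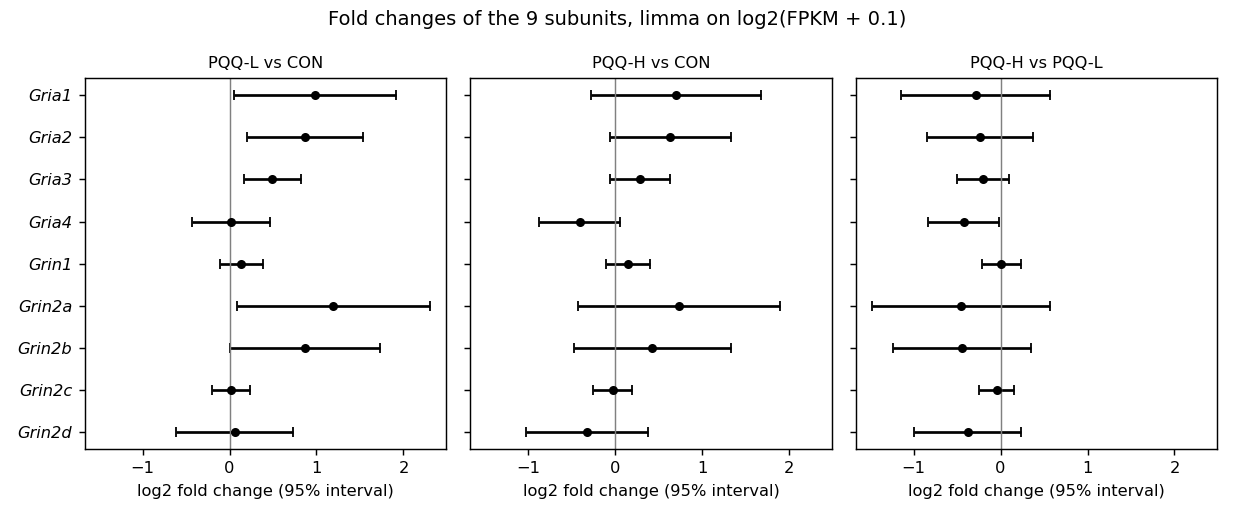
Fitted log2 fold change of each subunit in the 3 comparisons, with its 95% interval (limma on log2(FPKM + 0.1), 12 libraries). The intervals of Gria1, Gria2, Gria3, Grin2a and Grin2b lie above 0 in PQQ-L vs. CON and cross 0 in PQQ-H vs. CON.

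In PQQ-H vs. CON, the same question was asked of the high dose against the same 3 CON libraries. No subunit passed an adjusted p below 0.05, which 1.09% of all genes did (0.0145% higher and 1.08% lower). At an unadjusted p below 0.05, 0 of 9 were higher (1.85% of all genes) and 0 were lower (7.88%). The log2FC was 0.70 for Gria1 (-0.28 to 1.68), 0.63 for Gria2 (-0.06 to 1.33), 0.29 for Gria3 (-0.05 to 0.63), 0.74 for Grin2a (-0.42 to 1.90) and 0.43 for Grin2b (-0.48 to 1.33). It was 0.15 for Grin1, -0.03 for Grin2c and -0.32 for Grin2d. Gria4 had a log2FC of -0.41 (-0.87 to 0.06, adjusted p = 0.590) and was the 1 subunit whose libraries did not overlap between the groups, in the lower direction, where 5.72% of all genes did not overlap (1.36% in the higher direction). The log2FC was above 0 for 6 of 9 subunits and for 44.4% of all genes. With the 4 striatum-high libraries left out, the Gria4 log2FC was -0.78 and that of Grin2b -0.16. Leaving out CON 2 gave a log2FC of 1.23 for Gria1, 1.01 for Gria2, 0.48 for Gria3, 1.30 for Grin2a and 0.97 for Grin2b, all 5 at an unadjusted p below 0.05 and none at an adjusted p below 0.05. With the striatum score, 3 subunits were higher at an unadjusted p below 0.05, namely Gria1 (0.41), Gria2 (0.44) and Grin2a (0.40), and voom called 0 subunits. The summed choroid plexus markers also separated CON from PQQ-H, as did the summed cerebellar granule neuron markers (5.683 to 10.91 FPKM in CON, 0.933 to 2.335 in PQQ-H). Of the latter, Cbln1 made up most, and Gabra6 and Cbln3 were at most 0.164 FPKM in these libraries. The part of either in the Gria4 result was not tested.

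In PQQ-H vs. PQQ-L, which asked whether the doses differed, no subunit and no gene at all passed an adjusted p below 0.05 with limma, while 3.55% of all genes were higher and 4.60% lower at an unadjusted p below 0.05. Of the 9 subunits, 1 was lower at that level, Gria4, with a log2FC of -0.43 (-0.84 to -0.01, adjusted p = 0.580). Without PQQ-L 3 its log2FC was -0.29. The cerebellar granule neuron markers were 2.515 to 19.54 FPKM in PQQ-L, above all PQQ-H libraries, and their part was not tested. voom on the recovered reads likewise gave 0 subunits at an adjusted p below 0.05 and 1 lower at an unadjusted p below 0.05. The log2FC was above 0 for 1 of 9 subunits, against 45.7% of all genes, and none was fully separated between the doses (1.42% of all genes higher, 3.33% lower). The other subunits ranged from -0.45 for Grin2a to 0.01 for Grin1, and their intervals reached -1.48 for Grin2a and 0.57 for Gria1, so differences of such sizes are not excluded by these libraries. With the striatum score as a covariate, Gria1 was 0.27 and Grin2a 0.20, in the opposite direction to -0.28 and -0.45 without it. The test across the 3 groups gave an unadjusted p below 0.05 for Gria2 (adjusted p = 0.380) and Gria3 (adjusted p = 0.342), where 13.0% of all genes did, and an adjusted p below 0.05 for no subunit, where 0.623% of all genes did.

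**Figure D4:**
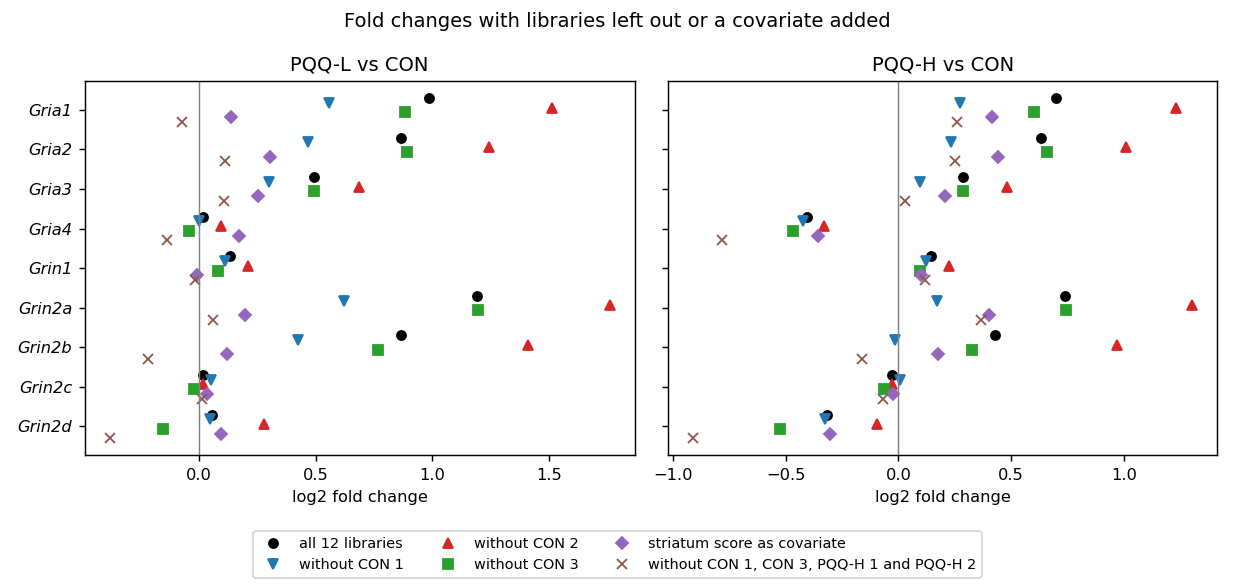
Log2 fold change of each subunit in PQQ-L vs. CON (left) and PQQ-H vs. CON (right) with all 12 libraries, with 1 CON library left out, with a striatum score as a covariate, and without the 4 striatum-high libraries. For Gria1 in PQQ-L vs. CON the values run from -0.07 to 1.51.

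The make-up of each receptor family was then compared within libraries. The summed FPKM of the AMPA subunits was 79.61 in CON 1 and 289.8 in PQQ-H 3, the extremes. Gria1 made up 47.6% to 67.9% of this sum, Gria2 19.2% to 23.6%, Gria3 9.9% to 20.2% and Gria4 2.12% to 13.0%. The Gria1 share was lowest in CON 1, CON 3, PQQ-H 2 and PQQ-L 3. The NMDA sum ran from 106.3 to 162.8 FPKM, and Grin1 made up 71.0% to 87.0% of it. The Grin1 share was 81.4% to 87.0% in the 4 striatum-high libraries and at most 77.3% elsewhere. Grin2a took 2.42% to 12.2% and Grin2b 4.76% to 13.8%. The AMPA sum was 0.749 of the NMDA sum in CON 1 and 1.81 of it in PQQ-L 5. These shares depend on the gene lengths discussed above. With the GENCODE lengths, the Grin1 share would be 49.1% to 68.6%, the Gria1 share 55% to 75.1%, and the AMPA sum 1.18 of the NMDA sum in CON 1 and 2.56 in PQQ-L 5, so that it would exceed the NMDA sum in all 12 libraries.

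**Figure D5:**
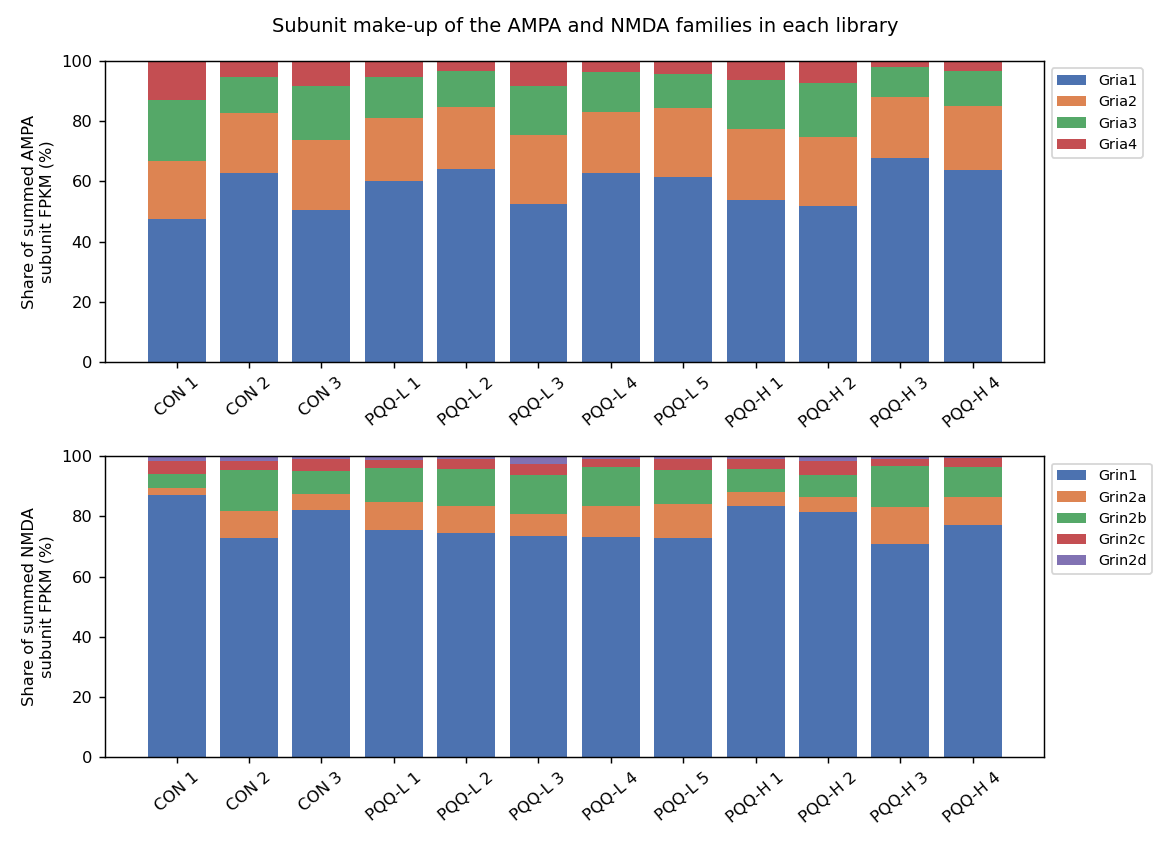
Share of each subunit in the summed FPKM of the AMPA family (top) and the NMDA family (bottom), 1 bar per library, each adding to 100%. The Grin1 share is 87.0% in CON 1 and 71.0% in PQQ-H 3, the highest and the lowest.

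Ratios between subunits do not depend on the library total, and 4 of them were tested in the 3 comparisons with exact two-sided permutation tests (12 tests). The Grin2a/Grin2b ratio, which rises as NMDA receptors mature, was 0.509, 0.637 and 0.711 in CON, 0.826, 0.730, 0.593, 0.794 and 0.981 in PQQ-L and 0.605, 0.673, 0.906 and 0.931 in PQQ-H. The groups overlapped, with a mean log2 difference of 0.34 in PQQ-L vs. CON (exact permutation p = 0.143) and 0.32 in PQQ-H vs. CON (exact permutation p = 0.286). The Gria1/Gria2 ratio lay between 2.16 and 3.38, with differences of 0.12, 0.07 and -0.05 in the 3 comparisons. Grin2b/Grin1 was 0.0547, 0.189 and 0.0921 in CON, 0.150 to 0.178 in PQQ-L and 0.0920 to 0.190 in PQQ-H. The lowest p of the 12 tests was that of Gria1/Grin1 in PQQ-L vs. CON, with a difference of 0.85 (exact permutation p = 0.107, adjusted p = 0.544). This difference was 0.45 without CON 1 and 1.30 without CON 2, and that of Grin2a/Grin2b in PQQ-L vs. CON was 0.20 without CON 1. The smallest p possible was 0.0357 in PQQ-L vs. CON, 0.0571 in PQQ-H vs. CON, which cannot reach 0.05, and 0.0159 in PQQ-H vs. PQQ-L.

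Likeness between genes was described by Pearson's r of log2(FPKM + 0.1) over the 12 libraries, which share their tissue make-up. Gria1, Gria2, Grin2a and Grin2b had r of 0.94 to 0.99 with each other, and Gria3 had r of 0.89 to 0.94 with these 4. Gria4 and Grin2d had r of 0.85, and Grin2c had r of -0.43 to 0.14 with the other subunits. Among the other genes tested, Nr3c2, which encodes the mineralocorticoid receptor, was most like both Gria1 (r = 0.994) and Grin2a (r = 0.995). Nr3c2 was 2.21 FPKM in CON 1, 16.2 in CON 2 and 27.2 in PQQ-H 3. The genes next to Gria1 were Ccdc71l (0.994) and Prkce (0.992), and those next to Grin2a were Zeb2 (0.994) and Zbtb18 (0.993). Ust (0.988) and Cacna1e (0.987) were among the genes most like Gria2. Csmd1 (0.975), Nol4 and Slc16a7 were closest to Gria3, and Zer1 (0.993), Ncoa1 and Dscaml1 to Grin2b. For Grin1 they were Rasgrp1 (0.97), Epdr1 and Senp2, for Gria4 Dzank1 (0.941), Grb10 and E230016M11Rik, and for Grin2d Tmem130 (0.956), Prkg2 and Vav2. Grin2c had no close counterpart, with Snrnp25 at 0.805, then Gcsh and Mrgbp.

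The wider receptor pathway was described through 7 lists of 79 genes, of which 76 were tested. At an adjusted p below 0.05, 0 of 76 passed in PQQ-L vs. CON, 1 in PQQ-H vs. CON and 0 in PQQ-H vs. PQQ-L, where 0.587%, 1.09% and 0% of all genes passed. At an unadjusted p below 0.05, 17 were higher and 4 lower in PQQ-L, 4 and 3 in PQQ-H, and 1 and 2 between the doses. Over all genes, the shares were 8.92% higher and 11.6% lower in PQQ-L, 1.85% and 7.88% in PQQ-H, and 3.55% and 4.60% between the doses, and the counts of the single lists below stand against the same shares. The gene that passed was Slc7a10, which encodes the transporter Asc-1 for glycine and D-serine, the co-agonists of the NMDA receptor. Slc7a10 was 16.1, 12.4 and 17.0 FPKM in CON, 9.33, 11.6, 9.18, 10.0 and 9.57 in PQQ-L, and 8.0, 9.80, 9.95 and 9.39 in PQQ-H. No library of either PQQ group reached the lowest CON library. Such a gap in the lower direction was found for 7.66% of all genes at the low dose and 5.72% at the high dose. Since the gene was picked for the smallest p of its list against CON, its separation is a description. Slc7a10 fell by 0.70 on the log2 scale in PQQ-H (-0.97 to -0.42, adjusted p = 0.0244), and the log2FC in PQQ-L was -0.60 (-0.86 to -0.34, adjusted p = 0.0536). In PQQ-L the adjusted p was 0.0414 with a pseudocount of 1 or with voom, and 0.0101 without CON 2. It was 0.294 without CON 1 and 0.214 without CON 3.

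The Slc7a10 call depended on single libraries and settings. In the settings that follow, its log2FC stayed between -0.61 and -0.70, except without CON 2 and without the 4 striatum-high libraries. In PQQ-H vs. CON, leaving out CON 1 gave an adjusted p of 0.0983, CON 3 gave 0.127, PQQ-H 1 gave 0.0561 and PQQ-H 4 gave 0.0736, and a replicate block gave 0.245. Scaling by the median of ratios gave 0.0560, and fitting only the 2 groups compared gave 0.175. Leaving out CON 2 gave a log2FC of -0.83 and an adjusted p of 0.0053. With the 4 striatum-high libraries left out, the log2FC was -0.36 and the adjusted p 0.448. The summed astrocyte markers were 603.2 to 754 FPKM in CON, 560.1 to 641.8 in PQQ-L and 557.5 to 768.6 in PQQ-H. The summed choroid plexus markers separated CON from both PQQ groups. The part of either in the Slc7a10 result was not tested.

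Among the other ionotropic subunits (9 genes, 8 tested), 2 were higher at an unadjusted p below 0.05 in PQQ-L and 1 in PQQ-H. Grik2, a kainate receptor subunit, had the smallest p in both, with a log2FC of 0.36 (adjusted p = 0.200) and 0.32 (adjusted p = 0.389). Its FPKM was 2.36 to 2.86 in CON and 2.95 to 3.78 in the PQQ libraries, without overlap, as for 2.96% of all genes in PQQ-L and 1.36% in PQQ-H in the higher direction. Grin3a, an NMDA subunit that lowers calcium entry, was 2.96 to 6.40 FPKM in PQQ-L and 1.68 to 2.71 in PQQ-H, also without overlap (3.33% of all genes in the lower direction), with a log2FC of -0.78 (adjusted p = 0.580). The Grin3a maximum lay in PQQ-L 3, where Gria4 and Grin2d also peaked. Both genes are named for having the smallest p of their list, so their lack of overlap is a description.

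Auxiliary subunits (19 genes, all tested) included 4 higher and 1 lower in PQQ-L and 2 higher in PQQ-H at an unadjusted p below 0.05. Neto1, an auxiliary subunit of kainate receptors, led in PQQ-L with a log2FC of 0.65 (adjusted p = 0.218), and Shisa7, an auxiliary protein first described at AMPA receptors, in PQQ-H with 0.54 (adjusted p = 0.341). Shisa7 was 10.0, 18.5 and 17.3 FPKM in CON, and its log2FC was 0.26 without CON 1 and 0.33 without the 4 striatum-high libraries. Among 13 scaffold and trafficking genes (12 tested), 1 was higher in PQQ-L at that level, Nsf, the ATPase that binds GluA2, with a log2FC of 0.58 (adjusted p = 0.242). Of the 8 genes for extracellular clustering, 2 were higher, led by Nptx1, a neuronal pentraxin that gathers AMPA receptors, with 1.20 (adjusted p = 0.235). This list had a median log2FC of 0.682 in PQQ-L, the highest of the 7, and 0.237 in PQQ-H.

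Of 13 kinases and phosphatases, 3 were higher in PQQ-L, with the smallest p for Ppp3cb, a catalytic subunit of calcineurin (0.53, adjusted p = 0.233). Among the genes of editing and co-agonist supply (9 genes, 8 tested), 2 were higher and 3 lower in PQQ-L and 1 and 3 in PQQ-H, and Slc1a4, a transporter of neutral amino acids including serine, had a log2FC of -0.37 in PQQ-H vs. PQQ-L (adjusted p = 0.580). Among 8 genes of glutamate release and uptake, 3 were higher in PQQ-L. Slc1a2, the main astrocyte glutamate transporter, had a log2FC of 0.30 there (adjusted p = 0.234). Slc17a8, the vesicular transporter VGLUT3, had 0.94 in PQQ-H vs. PQQ-L (adjusted p = 0.580) from 60 to 431 reads. With the 4 striatum-high libraries left out, Nptx1 was at 0.22, Neto1 at 0.26, Ppp3cb at 0.10 and Nsf at -0.10 in PQQ-L vs. CON, while Grik2 was at 0.38. Leaving out CON 1 gave 0.64 for Nptx1, 0.31 for Neto1, 0.33 for Nsf, 0.36 for Ppp3cb and 0.15 for Slc1a2 there. Leaving out CON 2 gave 1.69 for Nptx1, 0.85 for Neto1, 0.92 for Nsf and 0.75 for Ppp3cb, with adjusted p of 0.0304 to 0.0399. The CON group was then made only of striatum-high libraries, and the share of all genes passing an adjusted p below 0.05 was not counted there.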

How the data were processed

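RNA labelled as hippocampal was sequenced in 12 libraries on an Illumina NovaSeq instrument. The authors filtered reads with fastp, mapped them with HISAT2, counted them with HTSeq-count and deposited FPKM values for 27833 genes. The build mm39 comes from the submitters' processing notes, while program versions and strandedness are not given in the sources used here. The authors' own tests used DESeq2 and were not used here.

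FPKM divides counts by gene length and library total. Whole reads were recovered from the deposited FPKM values (tolerance 0.02 reads) for 100% of 25563 genes above 0 in at least 2 libraries, giving 29654553 to 38179496 reads per library. Groups followed the labels. No pair of libraries within a group was a duplicate, since chi-square divided by its degrees of freedom was 17.42 or more in these 19 pairs. P-values measure only the spread between these libraries.

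limma 3.58.1 (R 4.3.3) was run with trend on log2(FPKM + 0.1) in one fit of 12 libraries, over 13796 genes whose mean FPKM reached 0.5, with Benjamini-Hochberg adjustment. A fold change on this scale understates that of low genes. Calls used an adjusted p below 0.05, alone or with a |log2FC| above 1. Ratios were compared with exact permutation tests in Python 3.11.15 with scipy 1.17.1. Named genes were the 9 subunits, the gene of smallest unadjusted p below 0.05 per list and comparison, and the 3 genes most like each subunit, of which 1 is not reported here. The members, 7 pathway lists and 14 marker lists were chosen with earlier results of these data known. Alternatives were a pseudocount of 1 or 0.01, other filters, median-of-ratios scaling, quantile normalization, only the 2 groups compared, the first letter of the library name or a striatum score as a covariate, a replicate block, voom on recovered reads and each library left out. Leaving out CON 1, CON 3, PQQ-H 1 and PQQ-H 2 together was chosen after seeing the data. Positions and promoters come from GRCm38, not the build of the files.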

Additional observations from a re-analysis of the deposited data

Results flagged for a closer look

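Grin2d was 3.26 FPKM in PQQ-L 3, far above the other PQQ-L libraries at 1.13 to 1.65 FPKM. The gap to the nearest library was 0.753 of the whole range of the group, more than the 95% critical value of Dixon's test for 5 libraries allows. Of 26 groups of values examined, this was the 1 that stood out, and chance gives about 1 in 20 such groups. In the same library Gria4 (15.8 FPKM) and Grin3a (6.40 FPKM) were at their highest. Of the 8 GABA interneuron markers, Lhx6 (10.7 FPKM), Vip (21.1 FPKM) and Sst (315.1 FPKM) were also highest there. Gad1, Gad2, Slc32a1, Pvalb and Npy were not, with Pvalb at 45.31 and Npy at 62.08 FPKM. The summed dentate granule (21.08 FPKM) and CA pyramidal (175.4 FPKM) markers were the lowest of the PQQ-L group there. The part of these in the Grin2d value was not tested.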

How the results depend on the processing

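Of 324 fold changes of the 9 subunits under settings other than leaving out 1 library, 304 kept their direction and side of the threshold and 20 turned. Since no subunit passed with all libraries, a fold change that shrank in the same direction counts as kept. With the striatum score, the log2FC in PQQ-L vs. CON went from 0.98 to 0.14 for Gria1 and from 1.19 to 0.20 for Grin2a. Without the 4 libraries of high striatum markers (CON 1, CON 3, PQQ-H 1 and PQQ-H 2), the log2FC turned in PQQ-L vs. CON for Gria1 (-0.072), Gria4 (-0.13), Grin1 (-0.018), Grin2b (-0.22), Grin2d (-0.38) and Nsf (-0.10), in PQQ-H vs. CON for Grin2b (-0.16), and in PQQ-H vs. PQQ-L for Gria1 (0.33), Gria2 (0.14), Grin2a (0.30) and Grin2b (0.060). The differences in log2 ratio turned for Grin2a/Grin2b (0.25), Gria1/Gria2 (0.20) and Gria1/Grin1 (0.20) in PQQ-H vs. PQQ-L, for Gria1/Gria2 (-0.19), Grin2b/Grin1 (-0.20) and Gria1/Grin1 (-0.054) in PQQ-L vs. CON, and for Grin2b/Grin1 (-0.28) in PQQ-H vs. CON. With the striatum score, Grin1 was -0.0057 in PQQ-L vs. CON, while Gria1 was 0.27, Gria2 0.14, Grin2a 0.20 and Grin2b 0.052 in PQQ-H vs. PQQ-L. Grin2c in PQQ-H vs. CON was 0.039 with median-of-ratios scaling and 0.044 with quantile normalization, which also gave -0.043 for Grin1 and 0.016 for Grin2c in PQQ-H vs. PQQ-L. With only libraries whose name starts with L, Gria1/Gria2 was -0.015 and Grin2b/Grin1 -0.17 in PQQ-H vs. CON, and with a pseudocount of 1 Grin2a/Grin2b was 0.0018 in PQQ-H vs. PQQ-L. The cause was not tested.

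Genes called in PQQ-L vs. CON numbered 65, and 112 with no filter, 42 at a mean FPKM of at least 1, 40 with the striatum score and 1 without the 4 libraries. In PQQ-H vs. CON they numbered 113, and 170 with no filter, 68 at a mean FPKM of at least 1, 44 with only the 2 groups compared and 6 without the 4 libraries. The test across 3 groups called 86 genes, and 147 with no filter.

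The replicate block gave 23 calls for PQQ-L and 48 for PQQ-H against CON, with 1 subunit rather than 5 higher at an unadjusted p below 0.05 in PQQ-L, Grin2c at -0.011 in PQQ-L vs. CON and Grin2a/Grin2b at 0.069 in PQQ-H vs. PQQ-L. Libraries of the same number had correlations of deviations of -0.619 to 0.717, above 0.1 in 4 of 10 pairs, so the numbers are shared names only.

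Leaving out 1 library, called genes ranged from 23 (without CON 1) to 866 (without CON 2) for PQQ-L and from 62 to 153 for PQQ-H against CON, and subunits at an adjusted p below 0.05 in PQQ-L vs. CON from 0 to 5. The log2FC in PQQ-L vs. CON ranged from -0.12 to 0.13 for Gria4, -0.022 to 0.055 for Grin2c and -0.18 to 0.28 for Grin2d, in PQQ-H vs. CON from -0.016 to 0.97 for Grin2b and -0.085 to 0.0061 for Grin2c, and in PQQ-H vs. PQQ-L from -0.048 to 0.096 for Grin1. Gria1/Gria2 ranged from -0.0097 to 0.27 for PQQ-L and -0.060 to 0.22 for PQQ-H against CON and -0.16 to 0.034 in PQQ-H vs. PQQ-L. Grin2a/Grin2b ranged from -0.11 to 0.096 in PQQ-H vs. PQQ-L, and Grin2b/Grin1 from -0.14 to 0.76 in PQQ-H vs. CON and -0.67 to -0.33 in PQQ-H vs. PQQ-L, where the exact permutation p was 0.0357 without PQQ-H 3. Counting error is small at 234 reads or more, so the number of libraries and their spread limit these comparisons.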
